A study of Mus musculus with 6 samples.

Results

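The lysosomal cathepsins examined here are 10 protease genes, Ctsa, Ctsb, Ctsc, Ctsd, Ctse, Ctsh, Ctsk, Ctsl, Ctss and Ctsz, taken by symbol from deposited tables of 16266 genes. All 10 were listed and all 10 passed the low-count filter. RNA came from bone marrow-derived macrophages (BMDMs), macrophages grown out of mouse marrow, after 24 h of LPS (lipopolysaccharide, a bacterial cell wall component), in 3 libraries labelled WT and 3 labelled KO. The study concerns myeloid-specific deletion of Capns1, the small regulatory subunit of calpains. The genotype field gives CAPNS1-KO, CAPNS2-KO and CAPNS3-KO for the 3 KO samples in turn, while the design text names capns1 for the group. The mouse strain, age, deleting Cre line and the source of each replicate are not stated in the labels, so each p-value measures only how these samples spread, and that spread may be technical. Every library received LPS, and no unstimulated cells were compared.

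Cathepsins are the main peptidases of the lysosome, made as inactive precursors, carried there by mannose 6-phosphate receptors and switched on by cleavage in the acid lumen. Most are cysteine proteases of the papain family (Ctsb, Ctsc, Ctsh, Ctsk, Ctsl, Ctss, Ctsz). Ctsd and Ctse are aspartic proteases and Ctsa is a serine carboxypeptidase. In macrophages they digest engulfed and autophagic cargo and prepare peptides for antigen presentation, and cystatins and related proteins inhibit the cysteine members.

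Many lysosomal genes carry the E-box CACGTG, the core of the CLEAR element bound by TFEB and related factors, so the E-boxes in the members' start-site windows are shown first. RefSeq windows on GRCm38.p6, running from 250 bases before to 50 after an annotated start, were at hand for 7 of the 10 members (Ctsa, Ctsc, Ctsd, Ctsk, Ctsl, Ctss and Ctsz), with Ctsa having 2. Ctsb, Ctse and Ctsh had no entry. CACGTG, which reads the same on both strands, occurred in windows of Ctsl, Ctsd and Ctsa and in 7.15% of all 32851 windows. The longer TCACGTGA, which contains it, occurred in Ctsd and Ctsa and in 0.974% of all windows. Capitals mark CACGTG.
Ctsl, chr13:64370742-64370765, minus strand: gttagaagcCACGTGctgatctaa
Ctsd, chr7:142388054-142388077, minus strand: tccccCACGTGacctgtatccagt
Ctsd, chr7:142387911-142387934, minus strand: cccgcgtctCACGTGacccgttga
Ctsa, chr2:164833757-164833786, plus strand: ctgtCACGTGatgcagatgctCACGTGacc
The Ctsl stretch lies within the annotated gene at its 5′ end, with 12 of its 24 bases in a GENCODE exon. The second Ctsd stretch and the Ctsa stretch lie in GENCODE exons, in untranslated sequence, although that Ctsd stretch is upstream of the RefSeq gene. The first Ctsd stretch lies upstream in both annotations. One of these 3 genes, Ctsl, was called lower in KO (below), while Ctsd and Ctsa were not called. A match of letters is a description and not a binding site.

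The members are scattered over chromosomes 1 (Ctse), 2 (Ctsa and Ctsz), 3 (Ctsk and Ctss), 7 (Ctsc and Ctsd), 9 (Ctsh), 13 (Ctsl) and 14 (Ctsb). Ctsk (95499210 to 95509387) and Ctss (95526786 to 95556405) are neighbours on the plus strand of chromosome 3, 17398 bases apart in RefSeq on GRCm38.p6. Their levels were far apart in these cells, so the 250 bases before each start are printed, with GAGGAA or its reverse complement TTCCTC, a core bound by the macrophage factor PU.1, in capitals.
Ctss, chr3:95526536-95526785, plus strand: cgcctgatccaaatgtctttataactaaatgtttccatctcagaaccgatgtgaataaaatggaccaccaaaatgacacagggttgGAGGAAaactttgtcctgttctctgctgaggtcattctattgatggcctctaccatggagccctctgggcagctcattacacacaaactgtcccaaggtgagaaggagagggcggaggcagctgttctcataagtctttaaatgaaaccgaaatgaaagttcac
Ctsk, chr3:95498960-95499209, plus strand: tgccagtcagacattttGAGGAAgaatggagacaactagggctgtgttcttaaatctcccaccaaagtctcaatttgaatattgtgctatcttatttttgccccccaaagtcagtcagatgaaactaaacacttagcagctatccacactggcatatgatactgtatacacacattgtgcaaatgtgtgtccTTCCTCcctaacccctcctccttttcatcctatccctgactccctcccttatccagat
GAGGAA on either strand occurred in 28.3% of all windows, and both of these neighbours hold it.

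Library totals ranged from 32631163 to 40913819 counts. Capns1 stood at 4.19 to 4.56 FPKM (counts scaled by gene length and library total) in the 3 KO libraries and at 219 to 239 in WT, so each KO library carried the loss. The second principal component separated KO replicate 2 (19.96) from its group (-9.97 and -8.55) and WT replicate 3 (-16.5) from its group (5.18 and 9.89). Counts of cathepsins called are also given without these libraries. The macrophage markers Adgre1 (3797 in KO, 3360 in WT), Csf1r (2452, 3076), Cd68 (795, 811) and Itgam (2094, 2204) were abundant in mean CPM (counts scaled by the library total only). Of 8 T and NK cell markers only 4 were listed in the counts, and their sum stayed at 0.0978 to 0.580 CPM in every library. Summed neutrophil and stroma markers, given below, were far higher than that.

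Cathepsins were among the most abundant transcripts of these macrophages. In WT, Ctsd, the aspartic protease that does much of the bulk protein breakdown in lysosomes, ranked 7 of all genes by mean FPKM. Ctsb, a cysteine protease with both endo- and exopeptidase activity, ranked 9. Ctss, the protease that trims the class II invariant chain, ranked 17, and Ctsz, a carboxypeptidase, ranked 37. In FPKM, which allows levels to be compared between genes through 1 deposited length per gene, WT means were 5660 ± 308 for Ctsd, 4892 ± 350 for Ctsb, 1911 ± 239 for Ctss and 1315 ± 13.5 for Ctsz (SD, n = 3). Ctsl (515 ± 93.6), Ctsa (316 ± 15.8) and Ctsh (279 ± 38.6) formed a middle tier. Ctsc, the dipeptidyl peptidase that activates granule serine proteases, stood at 32.9 ± 3.24. The place of Ctsc rests on its length, which the deposited values put at 11154 bases against 1670 for Ctsh, since by CPM, with no length, the WT means were 367 for Ctsc and 465 for Ctsh. The gap between Ctsz and Ctsl rests on length as well, at 1440 and 3576 bases. By CPM they overlapped in WT, at 1874 to 1913 for Ctsz and 1645 to 2229 for Ctsl. Ctse (5.74 ± 0.167) and Ctsk, the collagen-degrading protease of osteoclasts (2.81 ± 0.858), closed the order. In WT no neighbouring pair in this order overlapped between libraries, although Ctsa (304.9 to 334.4) and Ctsh (234.2 to 303.5) were close.

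The order in KO was the same for the upper 8 members and turned for the lowest pair. Ctsk (1.97 to 2.77 FPKM) lay above Ctse (1.39 to 1.50) in KO, whereas Ctse (5.60 to 5.93) lay above Ctsk (2.25 to 3.79) in WT. The separation of this pair in KO rests on length, at 1583 bases for Ctsk and 2120 for Ctse. By CPM they overlapped in KO, at 3.12 to 4.38 for Ctsk and 2.95 to 3.19 for Ctse. Ctsa (302.2 to 338.4) and Ctsh (278.6 to 317.1) overlapped in KO and were not separated there by FPKM. Their closeness rests on length too, at 3675 bases for Ctsa and 1670 for Ctsh. By CPM Ctsa was at 1111 to 1244 in KO and 1120 to 1229 in WT. Ctsh was at 465 to 530 CPM in KO and 391 to 507 in WT, below Ctsa in both groups. Of the summed FPKM of the 10 members, Ctsd and Ctsb made up 69.7 to 72.4% in WT libraries and 69.2 to 71.5% in KO libraries. That sum was 14027, 15783 and 14980 FPKM in WT replicates 1 to 3 and 12703, 13099 and 12719 in KO replicates 1 to 3, so every KO library lay below every WT library.

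**Figure D1:**
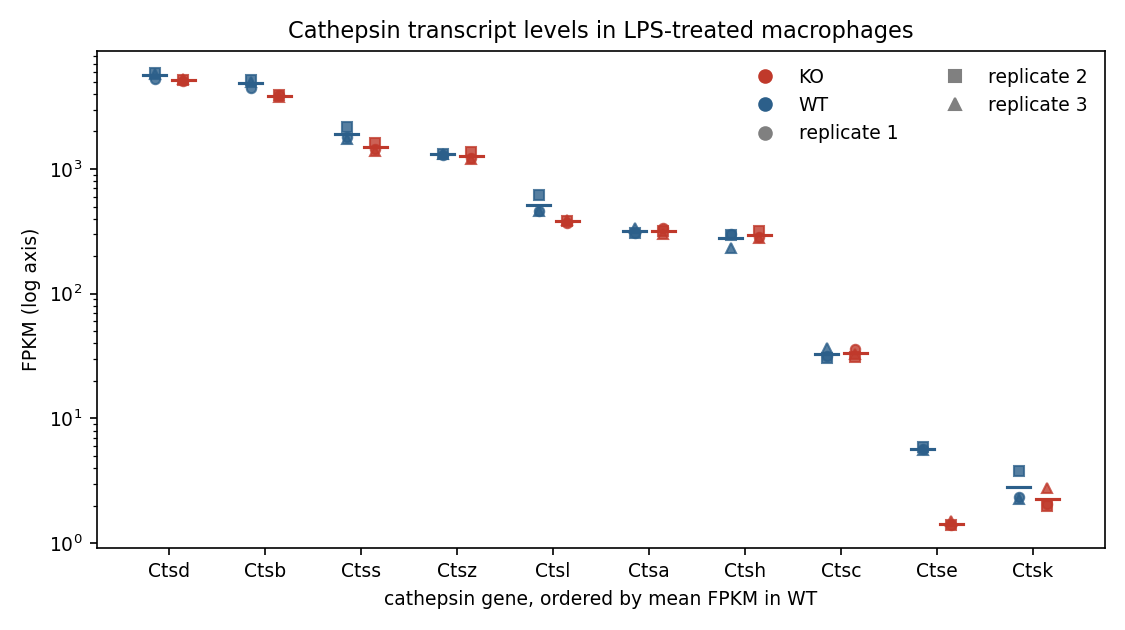
Level of each cathepsin in each library, as FPKM on a log axis, with WT in blue, KO in red, symbols for replicate numbers and bars for group means. Mean levels in WT span from 5660 FPKM for Ctsd to 2.81 for Ctsk, and Ctse shows the widest gap between the groups.

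In KO, 4 of the 10 cathepsins fell and 0 rose. The 4 were Ctse, Ctsl, Ctss and Ctsb. These calls are from edgeR's quasi-likelihood test with Benjamini-Hochberg adjustment over 12219 tested genes, called at an adjusted p under 0.05, and set against a background of 6.21% of tested genes lower and 8.44% higher in KO. The median log2 fold change (KO minus WT) was -0.24 over the 10 members and -0.011 over all tested genes. Of the 10 values 9 were below 0, a tally that includes Ctsa and Ctsc close to 0 and went from 7 to 9 over the 18 alternatives. KO libraries all lay below WT libraries in CPM for 5 members (the 4 called and Ctsd), against 15.5% of tested genes. With 3 libraries against 3, a two-sided exact permutation test on a single gene cannot go below p = 0.1, the value for each of these 5. The count of 4 became 1, Ctse alone, when KO replicate 1, KO replicate 3 or WT replicate 2 was left out, and 3 without WT replicate 1 or WT replicate 3. It was 4 without KO replicate 2, and 4 without both KO replicate 2 and WT replicate 3.

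Markers of cell types moved beside these counts. Of 10 macrophage markers 9 had values below 0, with a median log2 fold change of -0.20, and 1 fell, the LPS co-receptor Cd14 (-0.34, edgeR adjusted p = 0.0304). Csf1r, the receptor for the macrophage growth factor, was lower without overlap but was not called (-0.35, adjusted p = 0.0600). The summed macrophage markers were at 34203 to 39355 CPM in KO and 35954 to 43319 in WT, which overlap. Of 10 tested fibroblast and stroma markers 5 rose, and their sum was 347 to 420 CPM in KO and 163 to 197 in WT. The part of either cell type in the fall of the cathepsins was not tested.

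**Figure D2:**
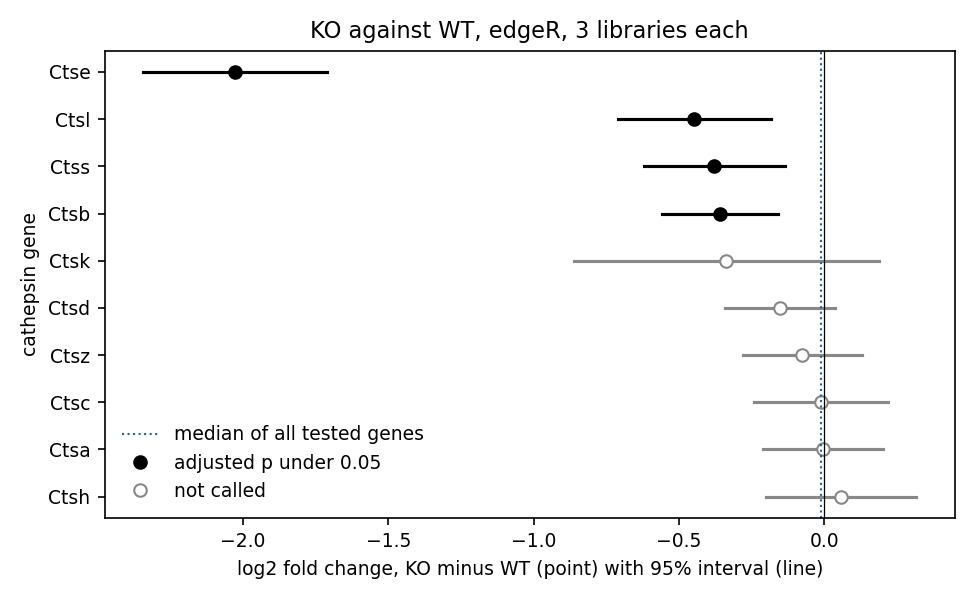
Log2 fold change (KO minus WT) of each cathepsin in edgeR as a point, with its 95% interval as a line. Filled black points passed an adjusted p of 0.05, open grey points did not, and the dotted line is the median of all tested genes. Ctse at -2.03 stands far from the other 3 called members, which lie between -0.45 and -0.36.

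Ctse carried the largest change among the 10. It encodes an aspartic protease of the endosome, related to Ctsd and known from gastric epithelium and immune cells. Its counts were 419, 498 and 486 in WT replicates 1 to 3 and 104, 110 and 104 in KO replicates 1 to 3. In FPKM these were 5.70, 5.93 and 5.60 in WT and 1.39, 1.39 and 1.50 in KO. The libraries of each group lay close together and the groups were far apart. The log2 fold change was -2.03 ± 0.14 SE (edgeR adjusted p = 5.63e-06), a fold of 0.245. Ctse was called under each of the 18 alternatives tried, with log2 fold changes from -2.04 to -1.47, the last from log2(FPKM + 1), a scale that shrinks the change of low genes.

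Ctsd, the other aspartic member and the most abundant cathepsin, did not pass the test. It stood at 5305, 5852 and 5823 FPKM in WT replicates 1 to 3 and at 5089, 5139 and 5287 in KO. The KO libraries were lower without overlap, but KO replicate 3 and WT replicate 1 nearly met. The log2 fold change was -0.15, with a 95% interval of -0.34 to 0.038 (edgeR adjusted p = 0.284). Of its 32-base sequence words, 33.1% also occur in transcripts of other genes. The gene sharing the most was Gm49369, which overlaps Ctsd on the same strand and was not analysed here. How reads were split between Ctsd and Gm49369 is uncertain.

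The cysteine proteases Ctsb, Ctsl and Ctss fell by 0.36 to 0.45 on the log2 scale. Ctsb stood at 4494, 5152 and 5030 FPKM in WT replicates 1 to 3 and at 3889, 3931 and 3810 in KO. The KO libraries were tightly grouped and all below the lowest WT library. Ctsb had a log2 fold change of -0.36 ± 0.091 SE (edgeR adjusted p = 0.0220), so it fell by 21.9%. Ctsl, an endopeptidase that degrades a wide range of proteins, stood at 460, 623 and 463 FPKM in WT and at 372, 385 and 393 in KO. WT replicate 2 was far above the other WT libraries, and without it the log2 fold change went from -0.45 ± 0.12 SE (edgeR adjusted p = 0.0281) to -0.28 (adjusted p = 0.0906). Ctss stood at 1814, 2184 and 1737 FPKM in WT and at 1459, 1613 and 1402 in KO. WT replicate 2 was again the highest, and the groups did not overlap. Ctss had a log2 fold change of -0.38 ± 0.11 SE (edgeR adjusted p = 0.0417).

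These 3 calls lay near the threshold. Ctsb lost its call when KO replicate 1, KO replicate 3, WT replicate 2 or WT replicate 3 was left out (edgeR adjusted p of up to 0.0942). Ctsl lost it when KO replicate 1, KO replicate 3 or WT replicate 2 was left out (up to 0.113), and Ctss when KO replicate 1, KO replicate 3, WT replicate 1 or WT replicate 2 was left out (up to 0.174). Calls of Ctsl and Ctss also ended in each limma-trend setting on log2 FPKM (adjusted p of 0.0570 to 0.0845), that of Ctsb in those without a filter on FPKM (0.0724 and 0.0784), and that of Ctss with upper-quartile scaling (0.0592) or a filter of 1 CPM in 3 libraries (0.0563). All 3 were called without KO replicate 2 and WT replicate 3 together, with log2 fold changes of -0.36 for Ctsb, -0.54 for Ctsl and -0.52 for Ctss. None of the 3 changed direction under any of the 18 alternatives.

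**Figure D3:**
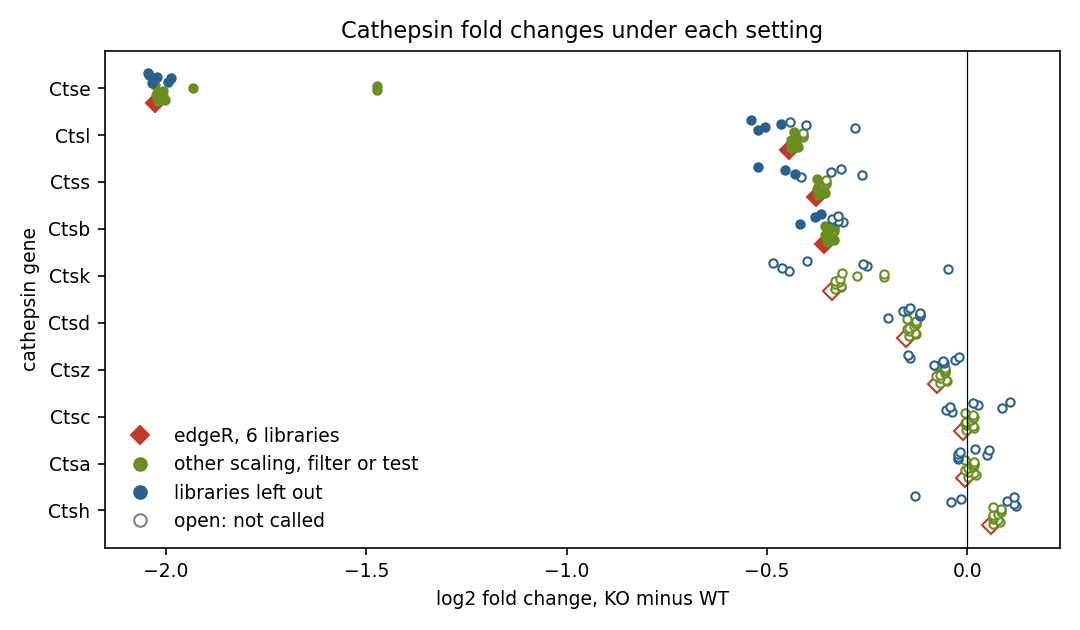
Log2 fold change (KO minus WT) of each cathepsin under the setting used throughout (red diamond) and 18 alternatives: other scalings, filters and tests (green) and libraries left out (blue). Filled symbols passed an adjusted p of 0.05. Ctse is filled throughout, Ctsl, Ctss and Ctsb hold both filled and open symbols left of 0, and Ctsa, Ctsc and Ctsh fall on both sides of 0.

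The remaining 5 cathepsins were not called, and their intervals bound what could have been missed. Ctsk counts were low, at 130, 238 and 146 in WT and 114, 116 and 143 in KO. WT replicate 2 stood apart and the groups overlapped. The log2 fold change of Ctsk was -0.34, with a wide 95% interval of -0.86 to 0.19 (edgeR adjusted p = 0.402), and -0.049 without WT replicate 2. The carboxypeptidase Ctsz stood at 1301, 1329 and 1314 FPKM in WT and 1231, 1360 and 1208 in KO, with KO replicate 2 above all WT libraries. The log2 fold change of Ctsz was -0.075 (95% interval -0.28 to 0.13). It was -0.14 without KO replicate 2, -0.032 without KO replicate 1 and -0.021 without KO replicate 3, and not called in any of these.

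Ctsa, which also protects the lysosomal enzymes Glb1 and Neu1 in a complex, stood at 310, 305 and 334 FPKM in WT and 338, 320 and 302 in KO, with full overlap. Its log2 fold change was -0.0053 (95% interval -0.21 to 0.20). Ctsa overlaps Pltp on the opposite strand, which had up to 76111 counts, and whether counting used strand is not stated, so its level is uncertain. The aminopeptidase Ctsh stood at 304, 298 and 234 FPKM in WT and 287, 317 and 279 in KO, with WT replicate 3 the lowest. Its log2 fold change was 0.058 (95% interval -0.20 to 0.32). Ctsc stood at 31.7, 30.5 and 36.6 FPKM in WT and 35.7, 30.9 and 33.0 in KO, again overlapping, with a log2 fold change of -0.010 (95% interval -0.24 to 0.22). The signs of Ctsa, Ctsc and Ctsh flipped with the scaling or with single libraries left out, so no direction is given for them.

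Ratios between members within a library do not depend on how libraries were scaled. The FPKM ratio of Ctsb to Ctsd was 0.847, 0.880 and 0.864 in WT replicates 1 to 3 and 0.764, 0.765 and 0.721 in KO, with no overlap. The ratio of Ctss to Ctsz was 1.39, 1.64 and 1.32 in WT and 1.18, 1.19 and 1.16 in KO. The ratio of Ctsl to Ctsz was 0.353, 0.469 and 0.352 in WT and 0.303, 0.283 and 0.326 in KO. For each of these pairs the KO libraries lay below the WT libraries. Against Ctsd, the ratio of Ctsl did not overlap (0.0732 to 0.0749 in KO and 0.0794 to 0.107 in WT), but that of Ctss did (0.265 to 0.314 in KO and 0.298 to 0.373 in WT). Shares of the summed FPKM of the 10 members overlapped for Ctss (11.0 to 12.3% in KO and 11.6 to 13.8% in WT) and for Ctsl (2.931 to 3.094% in KO and 3.088 to 3.950% in WT). The ratio of Ctsk to its neighbour Ctss overlapped as well (0.00130 to 0.00174 in WT and 0.00122 to 0.00197 in KO). These pairs were chosen after their values were seen, and the ratios were not tested.

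Among the other cathepsins, 2 of 3 tested genes fell and 0 rose. For this and the lists below, the share over all tested genes was 6.21% lower and 8.44% higher. Ctsg, the serine protease of neutrophil granules, stood at 21.3, 31.4 and 24.2 FPKM in WT and 11.0, 9.59 and 16.6 in KO, with no overlap. Its log2 fold change was -1.08 ± 0.20 SE (edgeR adjusted p = 0.00376), and it was called without each library in turn. Ctsf, a cysteine endopeptidase, fell by 0.47 on the log2 scale (edgeR adjusted p = 0.0234), a call lost when KO replicate 1, KO replicate 3 or WT replicate 3 was left out (up to 0.0988). Ctso was not called (-0.28, adjusted p = 0.101). Ctsw was below the filter, and the 9 other listed symbols were not analysed here.

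Ctsc activates granule serine proteases by removing a dipeptide. Of these substrates 3 of 4 tested genes fell in KO and 0 rose, while Ctsc itself was not called. Besides Ctsg these were Prtn3 (-0.93 ± 0.16 SE, edgeR adjusted p = 0.00326) and Elane (-0.93 ± 0.20 SE, edgeR adjusted p = 0.00998). Elane stood at 63.0, 93.4 and 81.4 CPM in WT and 42.7, 28.6 and 55.7 in KO. These genes are also markers of neutrophils and their precursors. Of 11 such markers 3 fell (Mpo, Elane and Prtn3) and 2 rose (S100a8 and S100a9), and their summed level was 1110 to 1491 CPM in WT and 1045 to 1405 in KO. The part of these cells in the fall of Ctsg was not tested. In bulk samples fewer cells of a type and less RNA per cell cannot be told apart.

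Cathepsin inhibitors moved in both directions, with 2 of 10 tested genes higher and 1 lower in KO. The stefin gene Stfa2l1 rose from 0.416 to 0.807 CPM in WT to 1.69 to 3.35 in KO (log2 fold change 1.91 ± 0.37 SE, edgeR adjusted p = 0.00485). Ctla2b, which resembles the propeptide of cysteine cathepsins, rose from 206 to 276 CPM in WT to 344 to 489 in KO (0.70 ± 0.15 SE, edgeR adjusted p = 0.00993). Serpina3g, a serpin that inhibits cathepsins, fell (-0.62, adjusted p = 0.0324), a call lost when KO replicate 1, KO replicate 3, WT replicate 1 or WT replicate 2 was left out (up to 0.147). The abundant inhibitors Cst3 and Cstb were not called. Cst3, the secreted cystatin C, had a mean of 1310 CPM in KO and 1400 in WT. Cstb, the cytosolic stefin B, was at 385 to 502 CPM in KO and 274 to 375 in WT, without overlap but with an adjusted p of 0.117. Members of the stefin and Ctla2 families share near-identical copies, so Stfa2l1 and Ctla2b are uncertain. Ctla2a had a value below 0, opposite to Ctla2b, but was not called (-0.52, edgeR adjusted p = 0.0825).

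Other lysosomal peptidases had 3 of 8 tested genes lower and 1 higher. Lgmn, the asparaginyl endopeptidase that processes Ctsb, Ctsl and Ctsh, was the most abundant of them, at 2064, 2016 and 2052 CPM in WT and 1582, 1583 and 1594 in KO. Both groups were tight and far apart. The log2 fold change of Lgmn was -0.39 ± 0.085 SE (edgeR adjusted p = 0.0105), beside -0.36 for Ctsb. The carboxypeptidases Cpq (-0.68) and Scpep1 (-0.39) fell too. The aspartic protease Napsa rose (0.54 ± 0.11 SE, edgeR adjusted p = 0.00700). Lgmn lost its call when KO replicate 1, KO replicate 3 or WT replicate 1 was left out (up to 0.0589), and Scpep1 when KO replicate 1, KO replicate 3, WT replicate 1 or WT replicate 3 was left out (up to 0.0847).

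Lysosomal acid hydrolases and their activators, which share the lumen with the cathepsins, had 7 of 28 tested genes lower and 0 higher, with a median log2 fold change of -0.28 and 26 of 28 values below 0. Psap, the precursor of the saposins that aid lipid breakdown, stood at 11849, 12560 and 14412 CPM in WT and 10097, 8257 and 9886 in KO (-0.48 ± 0.11 SE, edgeR adjusted p = 0.0107). Sgsh (-0.53), Pla2g15 (-0.37) and Asah1 (-0.33) fell as well. The partners of Ctsa were not called (Glb1 -0.27, adjusted p = 0.0827; Neu1 -0.019, adjusted p = 0.925). The number lower was 2 without KO replicate 1, KO replicate 3 or WT replicate 1, 3 without WT replicate 2, 4 without WT replicate 3 and 9 without KO replicate 2. It was 11, with 1 higher, without KO replicate 2 and WT replicate 3. Pla2g15 lost its call when KO replicate 1, KO replicate 3 or WT replicate 1 was left out (up to 0.0773), and Asah1 without any single library other than KO replicate 2 (up to 0.131).

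Genes that deliver cathepsins to lysosomes mostly did not pass the test. Of 18 tested sorting genes 1 was lower and 0 higher, near the 6.21% lower over all tested genes. The lower gene was Scarb2, the membrane protein that carries glucocerebrosidase (-0.34, edgeR adjusted p = 0.0281). With upper-quartile scaling, DESeq2 or the replicate number as a block, 1 sorting gene was higher. Without KO replicate 2 and WT replicate 3 together, 3 were higher and 2 lower. The mannose 6-phosphate receptors M6pr (-0.069, adjusted p = 0.744) and Igf2r (-0.092, adjusted p = 0.820) were not called. Among TFE factors and nutrient sensing genes 1 of 17 fell, also near the share over all tested genes. It was the transcription factor Mitf (-0.39, adjusted p = 0.0263), while Tfeb (-0.19, adjusted p = 0.337) and Tfe3 (-0.018, adjusted p = 0.936) were not called. Scarb2 lost its call when KO replicate 1, KO replicate 3, WT replicate 1 or WT replicate 2 was left out (up to 0.123), and Mitf without each of the 6 libraries (up to 0.0849).

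Class II processing genes, whose invariant chain is cut by Ctss, had 4 of 9 tested genes higher and 0 lower. With DESeq2, the replicate number as a block or WT replicate 2 left out, 1 was lower. H2-DMb1 (2.63), H2-Ab1 (0.75), H2-Aa (0.68) and H2-Eb1 (0.70) rose, and the invariant chain Cd74 was not called (0.091, adjusted p = 0.803). Below 0 but not called were Ciita (-1.55, edgeR adjusted p = 0.0800), H2-DMa (-0.24, edgeR adjusted p = 0.121) and H2-DMb2 (-0.048). Ciita was low, at a mean of 0.398 CPM in KO and 1.14 in WT. For H2-DMa the KO libraries all lay below WT in CPM. H2-DMb1 has a near-identical copy in H2-DMb2, so its value is uncertain. H2-Aa lost its call when KO replicate 3 or WT replicate 1 was left out (up to 0.0881) and H2-Eb1 when KO replicate 1, KO replicate 3, WT replicate 1 or WT replicate 2 was left out (up to 0.111). Of 3 tested dendritic cell markers 1 was higher in KO, Itgax (0.99, edgeR adjusted p = 0.00187). Zbtb46 (0.34, adjusted p = 0.675) and Batf3 (-0.16, adjusted p = 0.665) were not called, and 7 of 10 dendritic cell markers were below the filter. Of osteoclast genes set beside Ctsk, 1 of 8 fell, the RANKL receptor Tnfrsf11a (-0.44, adjusted p = 0.0268, lost when KO replicate 1, KO replicate 3, WT replicate 1 or WT replicate 3 was left out, up to 0.122). Acp5, a phosphatase of osteoclasts and macrophages, was not called (0.18, adjusted p = 0.344). Fibroblasts, whose markers were higher in KO as given above, also express Ctsk, and their part in its level was not tested.

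**Figure D4:**
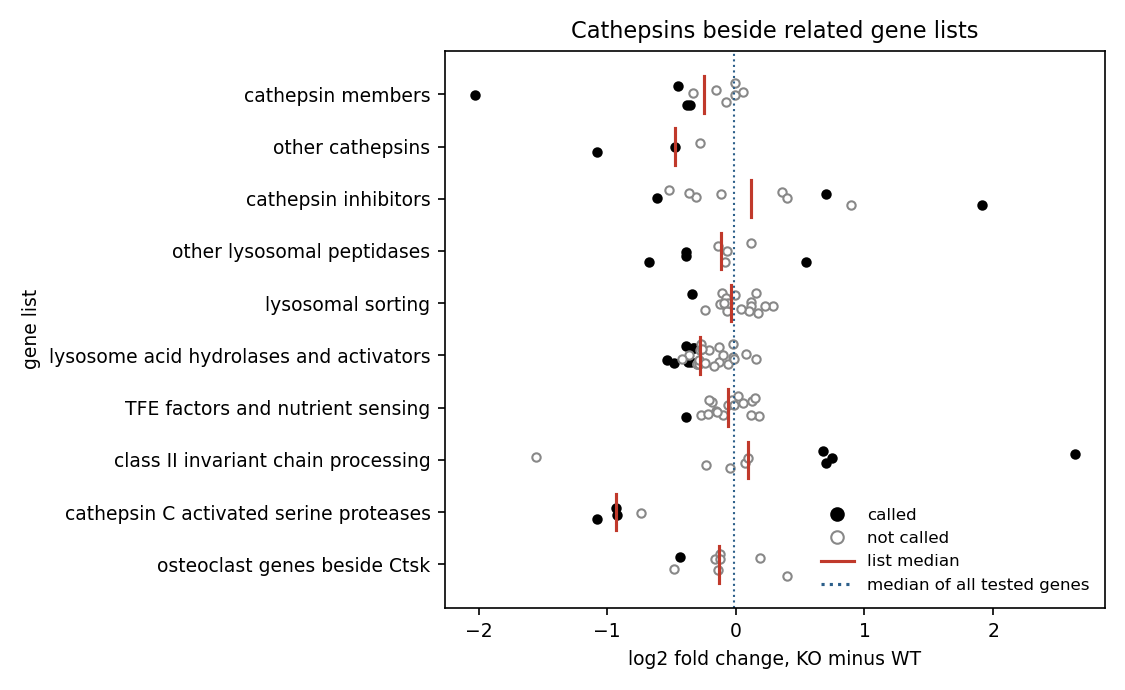
Log2 fold change (KO minus WT) of each tested gene, grouped by list, with called genes filled, list medians in red and the median of all tested genes dotted. The cathepsins (median -0.24) and the acid hydrolases (median -0.28) lie mostly left of the dotted line, the sorting genes (median -0.035) around it.

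The genes whose profile over the 6 libraries was nearest to each called member were taken among 8976 genes, by the root mean square difference of centred log2 CPM. For Ctse these were Svip, Arg2 and Map4k1, at 0.216 to 0.226. For Ctsb they were Dhx57, Mtmr10 and Cd14, at 0.0294 to 0.0321. For Ctsl they were Prxl2c, Tcf19 and Golph3l (0.0289 to 0.0527), and for Ctss Bbs9, Armt1 and Uhrf2 (0.0307 to 0.0336). No called cathepsin had another cathepsin among its 3 nearest genes. With 3 places among 8976 genes, that absence says little about shared profiles. Ctsk was not a candidate, since a mean CPM of at least 5 was required.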

How the data were processed

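Values are from 6 libraries of total RNA made strand-specific, per the labels' protocols. The authors deposited read counts per gene and FPKM values, made with HISAT2 and HTSeq after fastp on mm10, per the submitters' processing notes, which give no versions. Dividing each deposited count by 1 length per gene and the library total returned the deposited FPKM within 1% for 99.99% of the values with 10 or more counts. Library totals were 32631163 to 40913819 counts. A count of 0 thus allows up to 0.0733 to 0.0919 CPM (3 counts, counting error only).

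Groups and replicate numbers came from sample titles. All 6 libraries and 12219 genes entered 1 fit (R 4.3.3, edgeR 4.0.16, quasi-likelihood F test after filterByExpr and TMM), a procedure tested on simulated data. SE is the log2 fold change divided by the square root of F. CPM uses the column total. Alternatives used other scalings and filters, DESeq2 1.42.0, limma 3.58.1 (voom, and limma-trend with 1 or 0.1 added to FPKM before log2), a replicate block and libraries left out. Leaving out KO replicate 2 and WT replicate 3 together was added after seeing the data.

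The text names all members, Capns1, up to 4 called genes per list (or the 2 with the smallest p) and the 3 nearest genes per called member. Other genes named were chosen after their values were seen. Members and lists were chosen with earlier results of these data known.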

Additional observations from a re-analysis of the deposited data

How the results depend on the processing

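Of the 10 cathepsins, Ctse was called as lower under all 18 alternatives, Ctsb and Ctsl under 12 and Ctss under 9, and 0 were called as higher under any. The count called was 1 when FPKM was tested by limma-trend with a pseudocount of 1 or of 0.1, 2 with a pseudocount of 1 among genes with FPKM of at least 1 in 3 libraries, and 1 to 4 with 1 library left out, all of them lower in KO. Of the 6 uncalled members, Ctsd, Ctsk and Ctsz stayed below 0 under all 18, and the signs of Ctsa, Ctsc and Ctsh flipped. For Ctsa the log2 fold change of -0.0053 became 0.0017 with relative log expression scaling or DESeq2, 0.020 with upper-quartile scaling, 0.017 with library totals only or any limma-trend setting, 0.00082 with no low-count filter, 0.015 with at least 1 CPM in 3 libraries, 0.020 without KO replicate 2 and WT replicate 3, and -0.024 to 0.055 with 1 library left out. For Ctsc it became 0.016 with upper-quartile scaling, 0.014 with library totals only, 0.0099 with at least 1 CPM, 0.015 to 0.016 with limma-trend, 0.11 without both libraries and -0.054 to 0.086 with 1 left out. For Ctsh it was -0.13 without both and -0.041 to 0.12 with 1 left out. The causes were not tested. Among the other genes named, limma-trend ended the calls of Mitf, Serpina3g and Tnfrsf11a in each setting and that of Psap with a pseudocount of 1 and no FPKM filter (adjusted p = 0.0508), but not with the filter (0.0276).

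Over all genes, 1790 were called, 1031 higher and 759 lower in KO. With 1 library left out the counts were 1119 to 1741, 704 to 1039 and 359 to 742, and the share called higher went from 57.6% to 67.9% without KO replicate 1. Without KO replicate 2 and WT replicate 3 they were 3186, 1681 and 1505. With the replicate number as a block, 2526 genes were called, 1362 higher and 1164 lower, and 4 cathepsins. Acid hydrolases lower in KO were then 14 of 28, against 7 without the block and 10 with DESeq2. Deviations of same-numbered libraries from their group means correlated at -0.19, 0.40 and 0.33. KO replicates 2 and 3 correlated best with their own number in WT, and KO replicate 1 with WT replicate 3 (0.46). The labels do not say that replicate numbers pair the samples, so the main fit used no block. Depth limits mainly Ctsk and Ctse, with 104 to 498 counts per library.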
